A study of Mus musculus with 3 samples.

Results

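The genes described here control the passage of mammalian cells from G1 into S phase. They are the D-type cyclins Ccnd1, Ccnd2 and Ccnd3 with their kinases Cdk4 and Cdk6, the E-type cyclins Ccne1 and Ccne2 with their kinase Cdk2, the inhibitor Cdkn1b (p27) and the substrate Rb1. These 10 genes, of 22063 annotated genes with a listed site, were chosen by name. Each was given every poly(A) site on its strand from its start to 1 kb past its end in GENCODE M21 (build mm10). In poly(A) site sequencing (PAS-seq, by the QuantSeq method) a read starts from the poly(A) tail. It thus marks a place of cleavage, and long and short RNAs give about 1 read each. The cells were hybrid Cast x 129 embryonic stem (ES) cells of the mouse line F121-9 at passage 14. There was 1 group of 3 libraries, labelled as biological replicates 1, 2 and 3, each made from 500 ng of RNA with no treatment named. No separate cultures are named, so p-values measure the spread between these libraries, which may be technical.

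In most cells, D-type cyclins are made in response to growth signals and activate Cdk4 and Cdk6, which begin to phosphorylate the Rb1 protein. E-type cyclins then activate Cdk2, which completes that phosphorylation, and E2F factors held by Rb1 are released to switch on S phase genes. Cdkn1b binds and inhibits cyclin E and Cdk2 complexes. Mouse ES cells are known for a short G1 phase and for cyclin E and Cdk2 activity that varies little through the cell cycle. The 3′ UTR, set by the cleavage site that is used, carries binding sites of microRNAs and proteins, and shortened Ccnd1 3′ UTRs are known from tumour cells.

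The libraries held 10147672, 13513327 and 13040620 reads at listed sites. Replicate 3 had only 216 reads outside the autosomes, against 821582 in replicate 1 and 1012989 in replicate 2. Its RPM, a read count scaled to the library's own total, is therefore raised on the autosomes, where all 10 genes lie. Of 10 ES cell markers, 9 reached 10 RPM, led by Tdh, and Dppa5a was at 0.314 RPM. Of 7 fibroblast markers, only Thy1 (84.4 RPM) reached 10 RPM, and Dcn had no listed site. In bulk RNA, fewer cells expressing a gene and less of its RNA per cell cannot be told apart. The 10 genes held 104 sites and 37104 reads, and none of these sites was assigned to another gene. Of the sites, 35 had reads in every library and carried 97.8% of the reads, while 46 were read in 1 library only. The 50 bases that end at the most used site of each gene occurred 1 time in the genome for all 10, and the pseudogene Ccnd3-ps had 15 reads at 1 site.

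Cdk4, Cdk2 and Ccne1 were the most abundant, each at or above the 94.3rd percentile of 13102 autosomal genes with at least 1 RPM. Rb1, Ccnd3 and Ccne2 were the least abundant, between the 26.3rd and the 38.4th percentile. In all, 7 of 10 genes reached 10 RPM, against 7739 of the 13102 genes. The median of the 10 genes was 45.7 RPM against 15.3 RPM over the 13102 genes. The plot of levels by library shows this range.

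**Figure D1:**
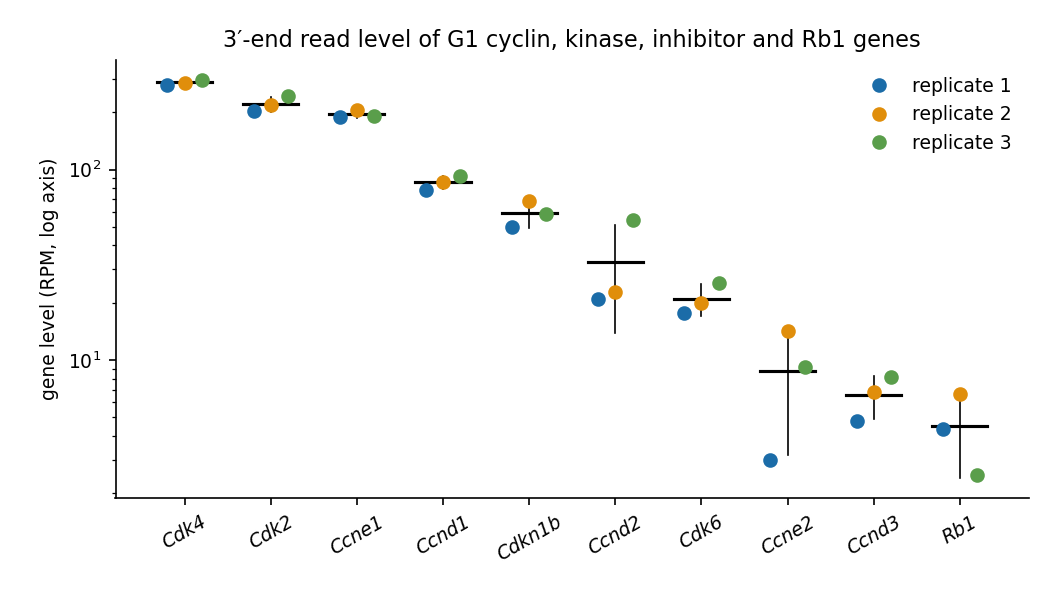
Level of each gene (RPM, log axis) in replicates 1, 2 and 3 (coloured points), with the mean (bar) and SD (line), ordered by the mean. Cdk4 (287 RPM), Cdk2 (221 RPM) and Ccne1 (196 RPM) sit above the rest, and Ccnd2 has replicate 3 (54.1 RPM) far above the other libraries.

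Among the D-type cyclins, the regulatory subunits that link growth signals to the cell cycle, Ccnd1 was the main species. Its level was 78.3, 86.4 and 92.5 RPM in replicates 1, 2 and 3 (85.7 ± 7.13, SD, n = 3), so that the libraries lay close together. Ccnd2 was read at 20.8, 22.8 and 54.1 RPM (32.6 ± 18.7). Replicate 3 thus held 2.60 times the lowest value, and the mean without it was 21.8 RPM. The coefficient of variation of Ccnd2 (57.3%) lay at the 98.6th percentile of 3871 genes within 2-fold of its level. Scaled to autosomal reads, Ccnd2 was at 24.8, 27.1 and 58.4, so replicate 3 remained the highest. Replicate 3 also had the highest summed level of the 7 fibroblast markers, at 135 RPM against 81.6 and 51.8, of which Thy1 gave 123, 81.3 and 48.9. Col1a1 was at 0.0902, 0.606 and 6.11 RPM. The summed markers of neuroectoderm (38.0, 41.4 and 59.4 RPM), mesoderm (9.29, 4.51 and 13.8), endoderm (1.71, 5.05 and 5.33) and trophoblast (4.24, 3.70 and 5.26) were highest in replicate 3 as well. So were the summed ES cell markers (3235, 3616 and 3779 RPM). None of these sums was scaled to autosomal reads, and RPM on the autosomes is raised in replicate 3. The leads of replicate 3 in endoderm and in the ES cell markers are narrow. Scaled to autosomal reads, replicate 2 would be highest in both. Of the 16 markers of neuroectoderm, mesoderm, endoderm and trophoblast, only Tubb3, of neuroectoderm, had a mean of 10 RPM or more, at 28.6, 29.6 and 50.8 RPM. T, of mesoderm, was at 6.40, 3.16 and 11.2 RPM. Other markers of these lineages did not follow. Sox1 (5.14, 4.71 and 4.41 RPM) and Eomes (2.89, 1.35 and 2.49) were highest in replicate 1. Nes (4.24, 6.93 and 4.195) and Sox17 (0, 1.75 and 0.213) were highest in replicate 2. The part of any of these cell types in the Ccnd2 level was not tested. Ccnd3 was the lowest D-type cyclin, at 4.78, 6.80 and 8.11 RPM (6.56 ± 1.67). Ccnd1 made up 75.3%, 74.5% and 59.8% of D-type cyclin reads (69.9% ± 8.74), Ccnd2 24.9% ± 8.73 and Ccnd3 5.23% ± 0.629.

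Of the catalytic partners of D-type cyclins, Cdk4 far exceeded Cdk6. Cdk4 was at 279, 286 and 296 RPM (287 ± 8.27), the least variable of the 10 genes at a coefficient of variation of 2.88%. Scaled to autosomal reads it was at 332, 340 and 319, so the library with the highest value depended on the scale. Cdk6 was at 17.7, 20.0 and 25.5 RPM (21.04 ± 3.99). Cdk4 made up 94.0%, 93.5% and 92.1% of the reads of the pair (93.2% ± 1.01), which leaves little difference between libraries.

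The E-type cyclins were also uneven. Ccne1 was at 190, 206 and 192 RPM (196 ± 8.85), and Ccne2 at 2.98, 14.1 and 9.24 RPM (8.79 ± 5.59). Ccne2 rested on 33, 210 and 130 reads, and its highest library had 4.75 times the lowest. Ccne1 gave 95.8% ± 2.46 of E-type cyclin reads. Cdk2, the kinase of both, was at 203, 218 and 242 RPM (221 ± 19.8), highest in replicate 3. The inhibitor Cdkn1b was at 49.98, 68.4 and 58.2 RPM (58.9 ± 9.22). Rb1, the pocket protein that restrains E2F, was at 4.33, 6.66 and 2.49 RPM (4.49 ± 2.09), on 48, 99 and 35 reads. It made up 18.8%, 34.7% and 17.2% of the reads of the 3 pocket protein genes (23.6% ± 9.69).

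In the order Cdk4, Cdk2, Ccne1, Ccnd1, Cdkn1b, Ccnd2, Cdk6, Ccne2, Ccnd3, Rb1, 6 of 9 neighbours differed beyond their spread. This means that the log2 ratio had 1 sign in 3 of 3 libraries and a mean above its SD. The order was set by the mean RPM of the same 3 libraries, so these ratios describe it and are no independent support for it. The exceptions were Ccnd2 and Cdk6 (0.50 ± 0.50), Ccne2 and Ccnd3 (0.19 ± 0.86), and Ccnd3 and Rb1 (0.61 ± 0.91). The exact sign-flip permutation test (two-sided) gave p = 0.25 for 8 of the 9 pairs (0.281 adjusted over the 9), the smallest that 3 libraries allow, and 0.75 for Ccne2 and Ccnd3. Ccne2 lay below Ccnd3 without replicate 2 (-0.24). Cdkn1b and Ccnd2 no longer differed beyond their spread without replicate 1 (0.84) or without replicate 2 (0.68).

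Ccnd1 RNA ended at many places. It had 22 sites, all in a terminal exon of an annotated transcript, and its effective number of sites (the inverse of the summed squared shares) was 4.33 ± 0.575. Over the pooled reads this number lay at the 95.8th percentile of 12612 autosomal genes with at least 50 reads, whose median was 1.34. The 30 bases that end at its 5 most used sites are shown because they lie within 1 exon. Capitals mark a poly(A) signal hexamer of the deposited lists, and all sequences are the RefSeq GRCm38.p6 (mm10) reference read 5′ to 3′ on the gene's strand.
Ccnd1 site 1, minus strand, chr7:144929932-144929961: aaatctagaaAATAAAattggtaaaatctc
Ccnd1 site 2, minus strand, chr7:144930695-144930724: catagagtgtatttacagatgccctttttt
Ccnd1 site 3, minus strand, chr7:144932315-144932344: tgctacaaaAATAGAattctgtaccccagt
Ccnd1 site 4, minus strand, chr7:144930046-144930075: tgaggggctctggctggtggccaggttggc
Ccnd1 site 5, minus strand, chr7:144932480-144932509: tgttaccagaagaggaagttttgttctctt

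Site 1 lay 2675 bases after the stop codon, 1 base short of the annotated end, and held the canonical signal AATAAA. It took 407, 508 and 561 reads, or 46.9%, 39.6% and 43.1% of the gene (43.2% ± 3.66), the highest share in every library. Site 2, at 1912 bases, took 13.8%, 11.1% and 11.1%, and site 4, at 2561 bases, took 13.02%, 8.96% and 6.23%. Neither had a listed hexamer. Near the stop codon, site 3 at 292 bases had AATAGA and took 9.10%, 13.2% and 10.7%, and site 5 at 127 bases had no hexamer and took 2.42%, 7.71% and 6.84%. Reads within 1000 bases of the stop codon were 19.5%, 33.4% and 32.8% of the gene (28.6% ± 7.88), the lowest share being that of replicate 1. The mean length after the stop codon, weighted by reads, was 2055, 1744 and 1775 bases (1858 ± 172). A-rich sequence, a mark of possible internal priming, followed 5 of the 22 sites, which held 5.42% of the reads.

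Ccnd2, in contrast, ended almost only at 1 site. It lay 5169 bases after the stop codon and took 227, 331 and 734 reads, or 97.5% ± 0.922 of the gene. The excess of Ccnd2 reads in replicate 3 was therefore at the same site as the reads of the other libraries. A second site, at the end of short isoforms near the start of the gene, had 24 reads in replicate 3 and 0 in the others. The site of the long isoform is shown as an example of a canonical end.
Ccnd2 site 1, minus strand, chr6:127125166-127125195: gctatttggacAATAAActcaccttgacct

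Ccnd3 had no dominant end. Its effective number of sites over the pooled reads lay at the 98.4th percentile, on 53, 101 and 114 reads. The most used site had ATTAAA, the commonest variant of the signal, and lay in the last exon of Ccnd3-206, a retained-intron transcript, upstream of the stop codon of the coding transcript. It took 23, 35 and 13 reads (29.8% ± 16.5). Sites 2 and 3, at 281 and 561 bases after the stop codon, took 22.2% ± 10.1 and 14.4% ± 7.82. Another 31 reads each lay at a retained-intron transcript's end and at an A-rich intronic site, both in replicate 3 alone. Reads at or past the stop codon of the coding transcript were 44.6% ± 9.40 of the gene.
Ccnd3 site 1, plus strand, chr17:47595396-47595425: agctgATTAAAgccaggccctgctcgctgg
Ccnd3 site 2, plus strand, chr17:47599028-47599057: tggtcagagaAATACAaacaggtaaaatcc
Ccnd3 site 3, plus strand, chr17:47599308-47599337: tgtgattgtggggtcttaagggtgccgtgg

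The kinases of the D-type cyclins differed in their ends as well. Cdk4 took 2978, 4084 and 3975 reads, or 96.0% ± 0.331 of the gene, at 1 site 275 bases after the stop codon. This lay 1 base from the end of the transcript Cdk4-207 and at position -624 relative to the end of the gene. Its sole listed hexamer was AACAAG, and all 30 bases are soft-masked as repeat in the reference. A site with ATTAAA took 85, 45 and 78 reads (1.89% ± 0.844). It lay in an inner exon of Cdk4-207, a retained-intron transcript, and in no exon of another transcript.
Cdk4 site 1, plus strand, chr10:127067267-127067296: aAACAAGacaagacaaagagtatggtcttt
Cdk4 site 2, plus strand, chr10:127065348-127065377: ctgggATTAAAggcatgcgttaccaccgcc

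Cdk6 ended mostly near its stop codon. Site 1, at 276 bases after the stop codon, lay 1158 bases from the nearest annotated end and had no listed hexamer. It took 104, 201 and 233 reads, or 53.1%, 67.7% and 65.1% of the gene (61.9% ± 7.80). Reads over 1000 bases after the stop codon were 24.0%, 19.2% and 33.0% (25.4% ± 6.99), spread over 17 sites of which 1 was read in every library. Site 3, at 4038 bases, had 0, 36 and 21 reads. Site 2 was intronic, had all of its 30 bases soft-masked as repeat and took 26, 20 and 0 reads. The farthest site with a mean share of 1% or more lay at 8606 bases.
Cdk6 site 1, plus strand, chr5:3521038-3521067: aaacttccagaagaagagaagctgctgacc
Cdk6 site 2, plus strand, chr5:3476482-3476511: gaAAGAAAGAAAggaaggaaggaaggaagg
Cdk6 site 3, plus strand, chr5:3524800-3524829: ccaaagaactcctcttctggagaaaacctg

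**Figure D2:**
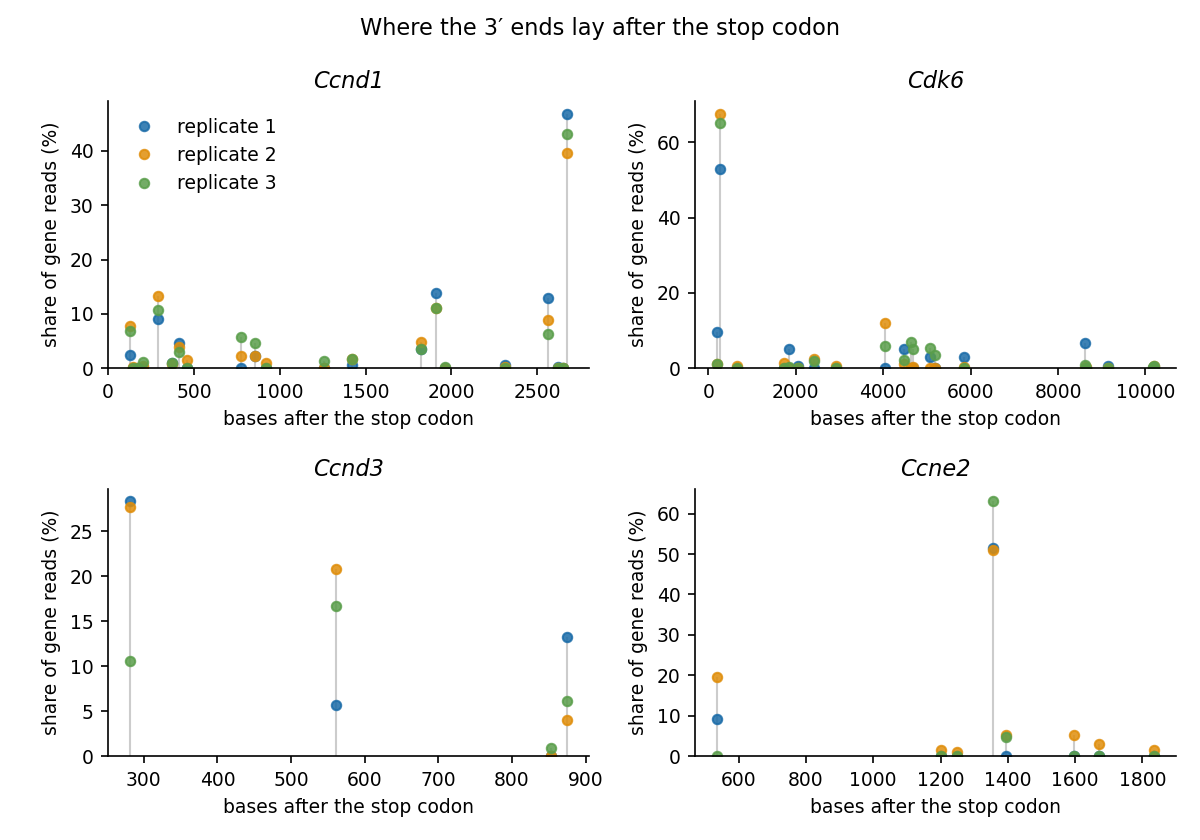
Share of each gene's reads (%) at its sites against the bases between the stop codon and the site in Ccnd1, Cdk6, Ccnd3 and Ccne2, with 1 point per library and sites outside the coding transcript's 3′ UTR left out. Ccnd1 peaks at its far end (43.2% at 2675 bases), while Cdk6 peaks near its stop codon (61.9% at 276 bases).

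Ccne1 and Cdk2 each ended at 1 site, as Cdk4 did. Ccne1 had 2102, 3058 and 2699 reads (99.97% ± 0.0328) at a site with AATAAA 529 bases after the stop codon and 2 bases short of the annotated end. Cdk2 had 2203, 3126 and 3258 reads (96.7% ± 1.15) at a cluster of 35 bases that reached 16 bases past the annotated end. Its ATTAAA began 41 bases upstream of the listed position, and so lies outside the 30 bases shown. Ccne2 was more divided. Its main site, at 1356 bases after the stop codon, took 17, 107 and 82 reads (55.2% ± 6.84). The sequence there ends in a run of 8 A, and internal priming was not tested at it beyond the rule on the 20 bases downstream. Site 3, with AATAAA at 535 bases, had 3, 41 and 0 reads and was thus almost confined to replicate 2. An intronic site had 9, 20 and 21 reads.
Ccne1 site 1, minus strand, chr7:38097986-38098015: caatttttAATAAAgataatactatctttg
Cdk2 site 1, minus strand, chr10:128697923-128697952: atattctcagctgtagagtgaatctctttc
Ccne2 site 1, plus strand, chr4:11204425-11204454: cactgtttaaaaAATAAAattgaaaaaaaa
Ccne2 site 2, plus strand, chr4:11200867-11200896: gcgtccttttaaaAATGAAactgctgattt
Ccne2 site 3, plus strand, chr4:11203604-11203633: tgaaAATAAAttttaagcttatttacaaag

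The inhibitor and the substrate used canonical ends. Cdkn1b had 554, 1015 and 818 reads (99.9% ± 0.0648) at a site with AATAAA 1 base short of the annotated end. Rb1 had 45, 60 and 33 reads (82.9% ± 19.3) at a site with AATAAA 1708 bases after the stop codon. In Rb1, replicate 2 stood apart with 60.6% at this site, against 93.8% and 94.3%, and with 23 reads at an intronic site that had none elsewhere.
Cdkn1b site 1, plus strand, chr6:134925483-134925512: aagcaatcAATAAAGAAAacttccgtagtt
Rb1 site 1, minus strand, chr14:73195503-73195532: ttttaaAATAAActagttgttcagagcctt

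Over the set, the most used site lay within 24 bases of an annotated transcript end in 7 of 10 genes, against 70.8% of 12612 genes. Ccnd3, Cdk6 and Ccne2 were the exceptions. A single site held over 95% of the reads in Ccnd2, Cdk4, Ccne1, Cdk2 and Cdkn1b, while the median gene had 85.7% at its most used site. By pooled reads, the top shares of these genes lay between the 69.6th (Cdk4) and the 90.4th (Ccne1) percentile, so such use was common among all genes.

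The use of sites within a gene was tested by comparing the most distal with the most proximal terminal exon site that held 5% or more of a gene's reads. It was limma on the log2 ratio of both sites within a library (RPM + 0.05), with Benjamini-Hochberg adjustment over 5099 genes. A call required a 2-fold ratio or more and an adjusted p below 0.05. The distal site was called higher in 17.9% of genes tested and the proximal site in 7.43%, and the median log2 ratio was 1.29. Scaling the 6 columns by TMM lowered this median to 0.54 and the distal share of all calls from 70.6% to 37.1%. With a variance trend in limma, an alternative chosen after seeing the data, the calls rose to 32.4% and 13.96% of genes. Of the 10 genes, 4 had such a pair, 1 of them was called distal (Ccnd1) and none proximal, and their median log2 ratio was -0.94. The unadjusted p was under 0.05 in Ccnd1 and Cdk6, and edgeR called Ccnd1 distal and Cdk6 proximal.

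In Ccnd1 the distal site had 36.7, 34.2 and 39.9 RPM and the proximal site, 2548 bases upstream, 1.89, 6.66 and 6.33 RPM. The distal site was higher in 3 of 3 libraries without overlap (log2 ratio 3.08, SE 0.58, limma adjusted p = 0.0435). This ratio lay at the 75.6th percentile of the 5099 genes tested. The ratio stayed between 1.85 and 3.44 over 15 alternatives, with adjusted p from 7.52e-06 to 0.147. The call ended without replicate 1 (0.12), without replicate 2 (0.147) or without replicate 3 (0.108), fits in which no gene was called. It also ended after TMM scaling (0.0805), with pairs at least 100 bases apart (0.0509), with no gene minimum (0.0538) and with a site minimum of 10% (0.0711).

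In Cdk6 the proximal site had 9.38, 13.5 and 16.6 RPM and the distal site, 3762 bases downstream, 0, 2.42 and 1.49 RPM. The proximal site was higher in 3 of 3 libraries without overlap, but the ratio did not pass the test (log2 ratio -4.48, SE 1.23, limma adjusted p = 0.0706). The call depended on the model. With the variance trend the adjusted p was 0.00372, with edgeR on whole reads 0.0133 and with a pseudocount of 0.5 RPM 0.00828, where the ratio was -3.22. With a site minimum of 1% both sites of the pair change, to those at 195 and 8606 bases after the stop codon, with 19, 3 and 4 reads against 13, 0 and 3. The ratio of that pair was -1.07 (limma adjusted p = 0.254), and no Cdk6 pair remained at 10%. Over the alternatives with a pair the adjusted p ran from 0.00372 to 0.254.

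Ccnd3 and Ccne2 did not pass the test either. In Ccnd3 the proximal site had 1.35, 1.88 and 0.853 RPM and the distal site 0.631, 0.269 and 0.498 RPM (log2 ratio -1.45, SE 0.58, limma adjusted p = 0.129). In Ccne2 the proximal site had 0.271, 2.76 and 0 RPM and the distal site 0, 0.741 and 0.427 RPM (-0.42, SE 1.44, adjusted p = 0.834 in limma), and the libraries went both ways. These rest on at most 41 reads a site and library.

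**Figure D3:**
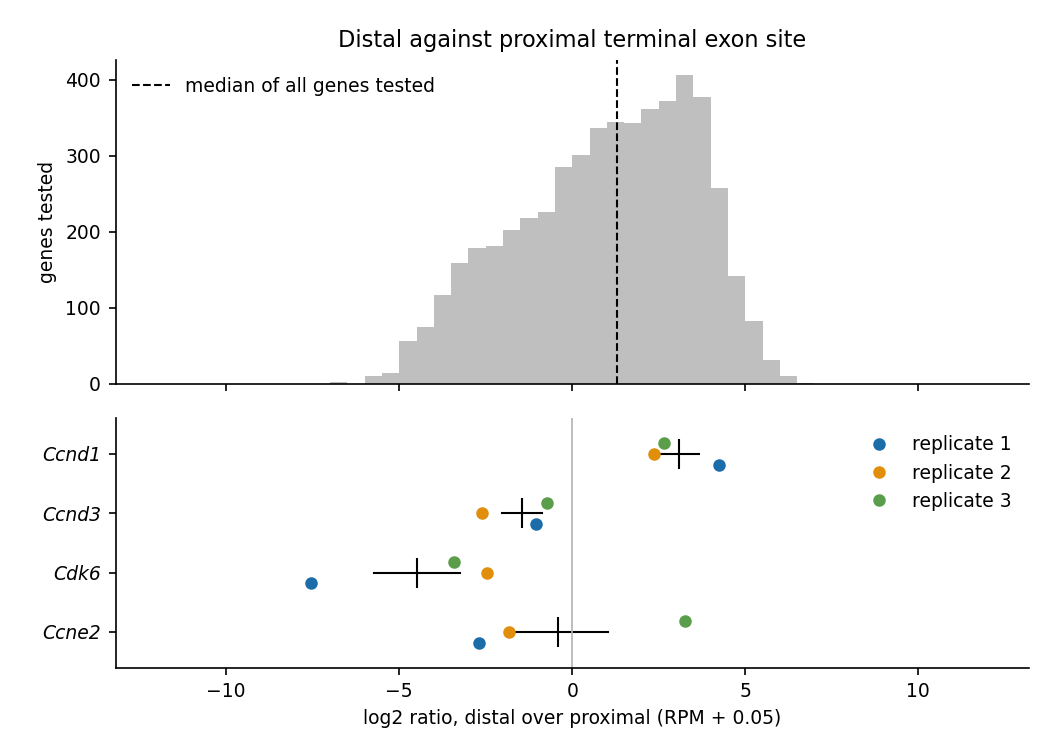
Top, number of genes tested by log2 ratio of the distal over the proximal terminal exon site (RPM + 0.05), with the median of all genes dashed. Below, the ratio in each library (points) with the fitted value and its SE (bar and line) for Ccnd1, Ccnd3, Cdk6 and Ccne2. Ccnd1 lies right of 0 and Cdk6 left of 0 in all libraries, and Ccne2 on both sides.

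The signals in front of the sites separated the genes further. Sites with AATAAA took 99.97% of Ccne1, 99.9% of Cdkn1b, 98.5% of Ccnd2 and 92.3% of Rb1 reads, against 64.3% ± 0.777 over all autosomal genes with at least 50 reads. They took 69.0% ± 9.05 of Ccne2, 43.2% ± 3.66 of Ccnd1 and 12.4% ± 13.8 of Ccnd3 reads. Cdk6 had 3.76% ± 0.613 at AATAAA and 77.7% ± 4.81 at sites with none of the 18 listed hexamers, against 11.2% ± 0.919 over all genes. Cdk4 and Cdk2 had 0% at AATAAA in every library. In Cdk2, ATTAAA preceded 96.7% ± 1.15 of the reads, but 0% when only the 40 bases upstream were searched, since it begins at 41. For Cdk4, 97.8% ± 0.995 of reads lay at other hexamers. Both kinases were among the 3 most abundant of the 10 genes.

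**Figure D4:**
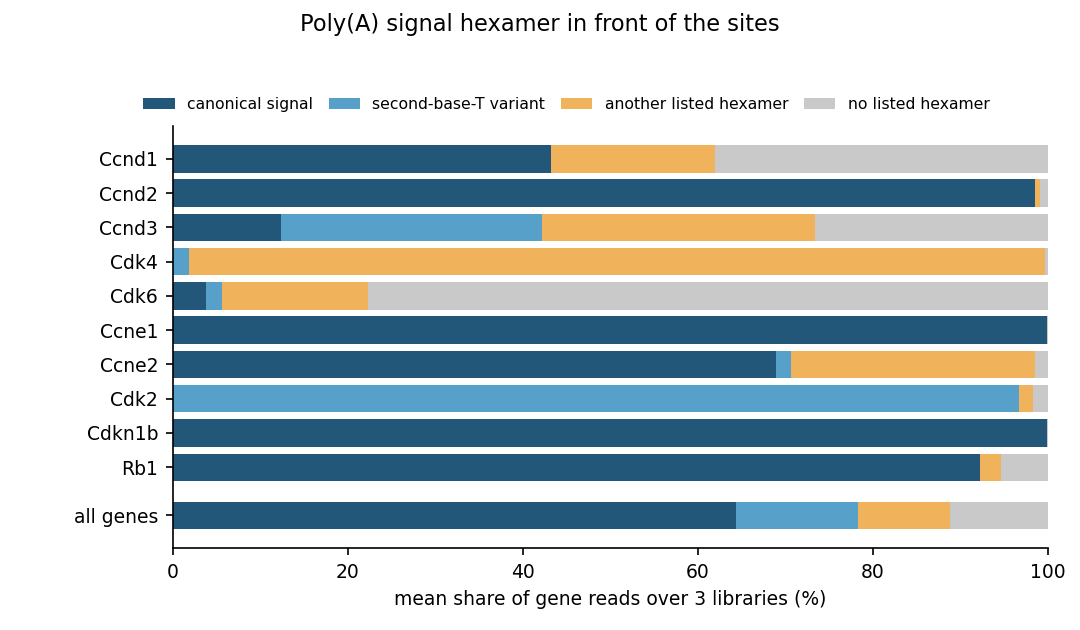
Mean share of reads (%) over 3 libraries at sites preceded by the canonical signal (AATAAA), by its second-base-T variant (ATTAAA), by another listed hexamer or by none, in each gene and over all autosomal genes with at least 50 reads. The bars of Cdk4, Cdk2 and Cdk6 hold little or none of the canonical signal, against 64.3% over all genes.

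Introns, meaning sequence in no exon of any annotated transcript, held reads in 4 of the 10 genes. Those were the 4 with the fewest reads. Exons of retained-intron transcripts do not count as introns here, so the count depends on the annotation. Sites in such exons alone had 208 reads at site 2 of Cdk4 and 44 reads at a site of Cdk2. Site 1 of Ccnd3 (29.8% of its reads) is likewise left out of the intron share. The median intron share of the 12612 autosomal genes with at least 50 reads was 0.495%, so reads in introns were common among all genes. The share averaged over the 10 genes was 5.18% ± 0.806. Introns held 1.44% ± 0.0806 of the pooled reads of all autosomal genes with at least 50 reads. That pooled share weights genes by their reads, so it is not a like measure to the average over genes. The shares were 3.77%, 10.9% and 27.2% in Ccnd3 (13.95% ± 12.01), 13.3%, 11.4% and 0.838% in Cdk6 (8.52% ± 6.71), 30.3%, 9.52% and 16.2% in Ccne2 (18.7% ± 10.6) and 0%, 29.3% and 2.86% in Rb1 (10.7% ± 16.2). The highest library was replicate 3 in Ccnd3, replicate 1 in Cdk6 and Ccne2, and replicate 2 in Rb1. The Ccnd3 share fell to 7.33% without replicate 3 and to 5.04% without A-rich sites, and that of Rb1 to 1.43% without replicate 2. By pooled reads, the 4 genes lay between the 80.1st and the 87.9th percentile of 12612 genes, of which 16.5% had over 10% of their reads in introns.

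Where a 3′ UTR ends decides which microRNA sites the RNA keeps. As a description, 3 families known for acting on G1 genes or for their abundance in ES cells were looked up: let-7, miR-16 and miR-294. None was measured here, and they were chosen after the sites had been seen. Their mature sequences (RefSeq, GRCm38.p6) are shown with the seed, bases 2 to 8, in capitals.
mmu-let-7a-5p: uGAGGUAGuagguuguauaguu
mmu-miR-16-5p: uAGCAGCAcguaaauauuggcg
mmu-miR-294-3p: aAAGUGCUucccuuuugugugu

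The complement of each seed (CTACCTC for let-7, TGCTGCT for miR-16 and AGCACTT for miR-294) was searched on the RNA strand only. The window ran from the stop codon to the farthest site with a mean share of 1% or more. Of the 10 genes, 5 had a match of any, with 12 matches in all, of which 1 pair in Cdk6 overlapped. TGCTGCT was found in Ccnd1, Ccnd2, Ccnd3, Cdk6 and Ccne1, AGCACTT in Ccnd1, Ccnd2 and Cdk6, and CTACCTC in none. Such letters are common in windows of that length that end at the most used terminal exon site of a gene. The windows came from autosomal genes with at least 50 reads, and the 10 genes were not left out. They lie in the last exon and may hold coding sequence, unlike the searched windows, which begin after the stop codon. TGCTGCT lay in 39.5% of 1760 windows as long as that of Ccnd1 (2675 bases) and in 10.1% of 8366 windows as long as that of Ccne1 (529 bases). AGCACTT lay in 30.1% of the windows of the Ccnd1 length. At the Ccnd2 length (5169 bases) TGCTGCT lay in 59.1% and AGCACTT in 52.4% of windows. At the Cdk6 length (8606 bases, only 43 windows) these shares were 74.4% and 53.5%. TGCTGCT lay in 16.5% of windows of the Ccnd3 length. CTACCTC lay in 2.13% of windows of the Cdk4 length, the lowest share, and in 44.2% of the Cdk6 length, the highest. Its absence thus says little. The share of reads that kept a match differed between genes. Ccne1 kept its TGCTGCT in 99.97% ± 0.0328 of reads and Ccnd2 both of its matches in 97.5% ± 0.922. Ccnd1 kept AGCACTT, at base 924 after the stop codon, in 78.9%, 66.6% and 67.2% of reads (70.9% ± 6.95), and TGCTGCT, at base 2206, in 60.8%, 48.9% and 49.3% (53.0% ± 6.76). Cdk6 kept its first AGCACTT, at base 1061, in 25.4% ± 6.99 and its first TGCTGCT, at base 3754, in 21.3% ± 8.35. Ccnd3 kept TGCTGCT in 22.4% ± 3.13. The 30 bases around 4 of these matches are shown, with the match in capitals. In Ccnd1 and Cdk6 they lie between used sites, and in Ccne1 the match lies upstream of the only used site.
Ccnd1 match to miR-16, minus strand, chr7:144930383-144930412: gcatgccaccaTGCTGCTggcccgggggga
Ccnd1 match to miR-294, minus strand, chr7:144931665-144931694: ttccatttcaaAGCACTTttggtcagctag
Cdk6 match to miR-16, plus strand, chr5:3524534-3524563: gttgcacagggTGCTGCTatctcaaagaca
Ccne1 match to miR-16, minus strand, chr7:38098012-38098041: tattttgtaagTGCTGCTatgtctatcaat

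Of 33 other genes of the G1 to S pathway, 25 reached 10 RPM and all had a listed site. Of the 13102 autosomal genes with at least 1 RPM, 7739 reached 10 RPM. Among 6 inhibitors of cyclin kinases, the level was highest for Cdkn1a (p21), at 338, 327 and 403 RPM (356 ± 41.1), and lowest for Cdkn2b (p15), at 0.271, 0 and 0.924 RPM. The pocket protein gene Rbl1 (p107) was at 13.7 ± 3.06 RPM, above Rb1, and Rbl2 (p130) at 1.53, 0.606 and 0 RPM. Of 10 genes of the E2F family and its partners, 9 reached 10 RPM, from E2f1 at 147 ± 4.39 RPM down to the repressor E2f7 at 8.54 ± 1.86 RPM. The CDK-activating kinase subunits Mnat1 (70.5 ± 15.96 RPM) and Ccnh (49.9 ± 10.5 RPM) and the phosphatase Cdc25a (60.5 ± 8.96 RPM), which activates Cdk2, were all read. Among 8 genes of cyclin and Cdkn1b turnover, the ubiquitin ligase subunit Skp1a was highest at 373 ± 25.7 RPM. Skp2, the subunit that recognises Cdkn1b, was lowest at 0.180, 0.606 and 0.213 RPM. The later cyclin Ccnb1 was at 187 ± 9.41 RPM and the kinase Cdk1 at 123 ± 10.4 RPM.

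Of these genes, 11 had a pair of terminal exon sites. In the test, 3 were called distal and 1 proximal, against 17.9% and 7.43% of all genes tested. The called log2 ratios (limma, adjusted p under 0.05) were 4.54 in Tfdp1, the E2F partner, 3.54 in E2f3 and 2.70 in Cdk1 for the distal site, and -3.47 in Ccnh for the proximal site. Each of these ratios had 1 sign in 3 of 3 libraries. All 4 calls ended when any library was left out, where no gene was called. With a site minimum of 1% Cdk1 turned to -2.02. TMM scaling ended the calls of Cdk1 (limma adjusted p = 0.0652) and Tfdp1 (0.0705). With no gene minimum the calls of Ccnh (0.0522) and Tfdp1 (0.0569) ended, with pairs at least 100 bases apart that of Tfdp1 (0.0523), and with a site minimum of 10% that of Cdk1 (0.0688). The other 3 had no pair at 10%. With the variance trend 4 were called distal and 5 proximal.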

How the data were processed

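Poly(A) sites of 3 libraries of 1 group were analysed. Per the labels, the deposited lists hold sites of the mm10 build. The aligner and the site caller are not given in the sources used. The authors deposited RPM per site, with a mean RPM and a fraction of libraries that matched recomputed values at all 178115 sites. Whole reads were recovered for 100% of values (within 0.0115 reads). The denominators were 11085428, 14855484 and 14064461 reads. Reads carry no molecular identifiers.

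A site was given to the gene whose terminal exon it overlapped, then to other exons, introns and the 1000 bases downstream. The pair test was limma 3.58.1 (R 4.3.3) on ratios within a library, intercept only, as planned. Tested on simulated data, this fit recovered the ratios but made no call. In that simulation only a small part of the genes was changed, and the spread of the reads was a fixed setting. In the data, 2579 of 5099 genes had an unadjusted p under 0.05 in limma. The adjustment depends on that part, so the lack of calls cannot be carried over to the data. A variance trend was added as an alternative after seeing the data. The edgeR 4.0.16 quasi-likelihood test on whole reads called 1345 distal and 581 proximal genes. A-rich sites had 12 or more A, or 6 in a row, among the next 20 bases. The genes, lists and tests were chosen with earlier results of these data known. Of the pathway list, the highest and lowest gene of each role and every called gene are named.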

Additional observations from a re-analysis of the deposited data

Results flagged for a closer look

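Reads on the opposite strand of a gene, at sites in no annotated gene, do not enter any comparison above. A count of 0 allows up to 3 reads. In Ccnd3 such sites had 0, 16 and 1 reads in replicates 1, 2 and 3, so the highest library exceeded this limit. In Cdk6 they had 0, 7 and 3 reads, with the highest library at 7, and in Ccne2 0, 7 and 1 reads, with the highest also at 7. All 3 were above the limit in replicate 2. Of the other 7 genes, Rb1 had 1 such read and the rest had none. The source of these reads was not tested.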

How the results depend on the processing

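The genes at 10 RPM or more numbered 7 or 8 and the neighbours beyond their spread 6 to 8 under each alternative. The distal and proximal calls (911 and 379) moved most. They were 602 and 240 with no gene minimum, 3193 and 801 with a site minimum of 1%, 501 and 229 with pairs at least 100 bases apart, and 1863 and 759 with 0.5 RPM as pseudocount. TMM gave 299 distal calls, edgeR 581 proximal calls, and the variance trend, added after seeing the data, 1652 and 712. A site minimum of 10% gave 0 and 0 in limma, with 1509 genes at an unadjusted p under 0.05. Leaving out 1 library gave 0 to 0 calls of either kind, with 1560 to 2002 genes at an unadjusted p under 0.05. With no replicate block (the library, as there is 1 group) the calls were 1473 and 620, and no gene of the set changed its call. The Ccne2 ratio turned to 3.52 with the 2 most used sites or a minimum of 10%, and ran from -2.26 to 0.71 with 1 library left out (0.29 without replicate 2), never passing the test. The level ratio of Ccne2 over Ccnd3 ran from -0.24 to 0.62 with 1 library left out, and the site ratio of Cdk1 turned to -2.02 at 1%. The mean intron share of 5.18% was 4.22% without A-rich sites and 4.72% to 5.42% with 1 library left out, and the mean AATAAA share stayed between 51.1% and 52.7%. Beyond each alternative's own construction, the cause was not tested. Rb1 (182 reads), Ccnd3 (268) and Ccne2 (373) have the least precise site shares.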
